A study of Mus musculus with 15 samples.

Results

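Lysosomes are the acid compartments in which cells digest protein, lipid and damaged parts, and autophagy is the route that wraps cytoplasm in a double membrane and delivers it to them. The genes described here were the rows of the expression table whose symbols named subunits of the lysosomal proton pump (Atp6v0 and Atp6v1 genes), the cathepsins Ctsa, Ctsb, Ctsc, Ctsd, Ctsh, Ctsk, Ctsl, Ctso, Ctss and Ctsz, Lamp1, Lamp2 and Mcoln1 (36 lysosome members). To these came the Atg genes, Ulk1 to Ulk3, the Gabarap and Map1lc3 genes, Sqstm1 and Becn1 (29 autophagy members), and the transcription factors Tfeb, Tfe3 and Mitf (3 regulators). Together they were 68 of 31298 gene symbols, and all 68 were among the 27994 genes tested. No measured value entered this choice. The 10 members with a mean log2 value under 8 over the 15 libraries (8 lysosome and 2 autophagy members, means 0.91 to 6.20) passed in no comparison: Atg4a-ps, Atg9b, Atp6v0a4, Atp6v0c-ps1, Atp6v0d2, Atp6v1b1, Atp6v1c2, Atp6v1e2, Atp6v1g3 and Ctsk. Atp6v0c-ps1 is annotated as a processed pseudogene, and Atg4a-ps is named as one although GENCODE lists it as protein-coding. Their reads may be shared with Atp6v0c and Atg4a, so the values of these 4 are uncertain.

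The libraries came from bone marrow hematopoietic stem cells (HSCs) of mice of the strain hCD34-tTA x TetO-H2BGFP, sorted as LSK cells (lineage-low, Sca1+, c-Kit+) that were CD48-, Flk2- and CD150+. In these mice a transactivator driven by human CD34 sequence switches on a green fluorescent histone, H2BGFP, and doxycycline stops its synthesis, so that each division dilutes the label. The label therefore reports only on cells in which that promoter was active before doxycycline. The sort was divided by remaining label into the bins GFP1, GFP2, GFP3 and GFP4, and an undivided sort was called Total. All 5 groups carried both transgenes and received doxycycline at 1 mg/ml in drinking water. Each had 3 libraries, numbered I, II and III, from mice of 5, 5.5 and 6.5 months after 12, 14 and 16 weeks of doxycycline. The bin number is taken here to rise with the label kept. The labels thus give libraries of the same number the same age and length of doxycycline, and values from a fit with the number as a replicate block are given where the block changes a call. Whether a library held 1 mouse or several is not given in the sources used here, so p-values describe only how much these libraries varied, which may be technical. The study asked how HSCs differ with the number of divisions they have made.

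Values are the log2 expression levels that the authors deposited, normalized so that all libraries share 1 distribution, and read depth is unknown. Differences are tested with limma, a linear model with moderated spread, and p-values are adjusted over all genes tested. The HSC marker Kit averaged 15.30, 15.76, 15.83 and 15.85 log2 units in GFP1, GFP2, GFP3 and GFP4. Markers that the sort selected against were also detected, Cd48 between 7.34 and 10.31 and Flt3 between 9.54 and 10.38 over the 15 libraries. Transcripts used as markers of other cell types move with the bins and were measured with marker lists. Whether they came from other cells or from the HSCs themselves was not tested. Summed plasma cell markers (10 genes) took 3980 to 4990 ppm in GFP1, as a share of all values of a library summed after the log was undone, and 2330 to 5800 ppm in Total. In the other 3 bins they took 205 to 366 ppm. Summed megakaryocyte and platelet markers (8 genes) took 1200 to 1920 ppm in GFP1, 643 to 817 in GFP2, 507 to 617 in GFP3, 399 to 494 in GFP4 and 762 to 1280 in Total. Summed B cell markers (8 genes) took 208 to 335 ppm in GFP1, 204 to 364 in Total and 77.3 to 145 in the other 3 bins. Summed HSC markers (12 genes) took 3410 to 3510 ppm in GFP1, 4770 to 4990 in GFP2, 5190 to 5920 in GFP3, 5720 to 6710 in GFP4 and 3560 to 4690 in Total. Summed macrophage markers (11 genes, all above the lowest value in every library) took 125, 1060 and 158 ppm in GFP1 libraries I, II and III, and 489, 147 and 185 ppm in GFP4. In GFP2 they took 303, 1470 and 491 ppm, in GFP3 313, 737 and 467 ppm, and in Total 183, 635 and 243 ppm. Library II had the highest macrophage sum in every group except GFP4, where library I did. Summed neutrophil markers (10 genes) took 3790, 6720 and 3910 ppm in GFP1 libraries I, II and III, and 1690, 4370 and 3300 ppm in GFP2. In GFP3 they took 3830, 5430 and 3930 ppm, in GFP4 6740, 2590 and 5340 ppm, and in Total 1750, 3250 and 4730 ppm. The libraries are of bulk RNA, in which fewer cells of a type and less RNA per cell cannot be told apart.

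As background, autophagy is started by the ULK kinase complex, which responds to the nutrient sensor mTORC1 and the energy sensor AMPK. Beclin 1 and ATG14 then form part of a lipid kinase that marks the new membrane. A conjugation machinery resembling that of ubiquitin attaches the small ATG8 proteins (the LC3 and GABARAP families) to the membrane, where they hold cargo receptors such as p62, the product of Sqstm1. TFEB, TFE3 and MITF are related transcription factors that bind the E-box CACGTG, often with a T before it and an A after it, in promoters of lysosomal genes. Autophagy is known to be needed for the maintenance of mouse HSCs, and lysosomes of quiescent HSCs have been described as abundant.

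Promoter sequence was read from RefSeq windows (GRCm38.p6) running from 250 bases before to 50 bases after the annotated start, which matched 54 of the 68 members. CACGTG, which reads the same on both strands, stood in a window of 13 of the 54 members (24.1%), against 8.09% of 27025 genes with a window; a gene with several annotated starts has several windows and was counted once. The share was 33.3% for lysosome members (9 of 27), 16.7% for autophagy members (4 of 24) and 0 of 3 for regulators. The longer form TCACGTGA, which contains CACGTG, was found for 6 of 27 lysosome members (22.2%) and 1.12% of all genes. One form of the forkhead core, GTAAACA or its reverse complement TGTTTAC, was found for 1 of 54 members (1.85%), against 4.05% of all genes. Other forms of that core were not searched. The stretches below lie before the annotated gene and are written 5′ to 3′ on the gene's strand with CACGTG in capitals. The first 4 show how E-boxes sit in lysosome and autophagy members, and the last 2 belong to Gabarapl1 and Sqstm1, the members called in both GFP1 and GFP2 against GFP4, whose windows hold none. The stretches are chr8:3500400-3500456, plus strand, for Mcoln1, chr8:13159059-13159158, plus strand, for Lamp1, chr4:117887340-117887439, minus strand, for Atp6v0b, chr16:45158684-45158783, plus strand, for Atg3, chr6:129533092-129533159, plus strand, for Gabarapl1, and chr11:50210828-50210920, minus strand, for Sqstm1.
Mcoln1: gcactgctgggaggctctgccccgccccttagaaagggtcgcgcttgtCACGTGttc
Lamp1: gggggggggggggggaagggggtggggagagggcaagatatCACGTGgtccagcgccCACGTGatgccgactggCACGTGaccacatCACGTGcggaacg
Atp6v0b: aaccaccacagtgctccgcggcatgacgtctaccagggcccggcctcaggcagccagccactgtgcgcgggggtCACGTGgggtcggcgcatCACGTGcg
Atg3: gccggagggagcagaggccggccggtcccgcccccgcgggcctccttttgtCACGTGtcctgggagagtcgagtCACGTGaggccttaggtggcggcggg
Gabarapl1: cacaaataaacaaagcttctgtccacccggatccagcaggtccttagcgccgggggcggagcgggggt
Sqstm1: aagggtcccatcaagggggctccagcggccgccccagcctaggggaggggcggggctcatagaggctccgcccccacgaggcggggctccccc

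Lamp1 shows 4 E-boxes in this stretch, Atp6v0b and Atg3 show 2 each, and Mcoln1 shows 1. The Mcoln1 window holds another, TCACGTGA, 45 bases before the RefSeq start, which lies inside the GENCODE gene and so past the end of the stretch printed. The windows of Gabarap, Gabarapl2, Map1lc3b and Ulk1 held no CACGTG either. A match is a description of letters and not evidence of binding, and its absence says nothing beyond this window.

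The lowest-label bin, GFP1, was compared with the highest, GFP4, to ask which members differ at the ends of the label range. Genes of the autophagy pathway fell in GFP1 or did not pass: 0 of 29 autophagy members were higher and 8 were lower (27.6%), with a median log2 difference of -0.20. Of the lysosome members, 1 of 36 was higher (2.78%) and 7 were lower (19.4%), with a median of -0.22. Of the 3 regulators, Mitf was lower. Over all genes tested, 9.27% were higher and 10.3% lower, with a median of -0.07. Because low genes are called less often, the 58 members with a mean of at least 8 were also set against the 10726 genes of that level: 27.6% of members and 21.9% of genes were lower, and 1.72% of members and 18.9% of genes were higher. The share of members that were lower was thus near that of all genes of the same level, while the share that were higher was smaller; neither difference in shares was tested. These counts are limma calls at an adjusted p under 0.05. Under the replicate block the lower lysosome members numbered 11, and autophagy members were 1 higher and 9 lower. Calls over all 27994 genes tested rose as well, from 2596 higher and 2872 lower to 2787 higher and 3139 lower.

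Markers of other cell types moved in the same comparison. Of 12 HSC markers 8 were lower and 0 higher in GFP1 (Hlf by -1.83 and Procr by -2.76), and 10 of 10 plasma cell markers were higher. Of 8 megakaryocyte and platelet markers 6 were higher (median 2.0), among them Itga2b by 3.21, Pf4 by 3.17, Gp1bb by 3.77 and Gp5 by 2.86. Of 8 B cell markers 6 were higher, of 10 erythroid markers 3 (Klf1, Epor and Car1), of 6 mast cell and basophil markers 2 (Cpa3 and Prg2) and of 5 osteoclast markers 1 (Acp5), with 0 lower in these lists. Without passing, 4 of the 10 erythroid markers (the globins Hbb-bs, Hbb-bt, Hba-a1 and Hba-a2) and 4 of the 5 osteoclast markers had a negative difference. The medians of these 2 lists were 0.28 and -0.4. Of 12 macrophage and 10 neutrophil markers limma called 0 (medians 0.16 and -0.13). The part of these cell types in the members' differences was not tested, other than for the plasma cell and macrophage markers below.

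**Figure D1:**
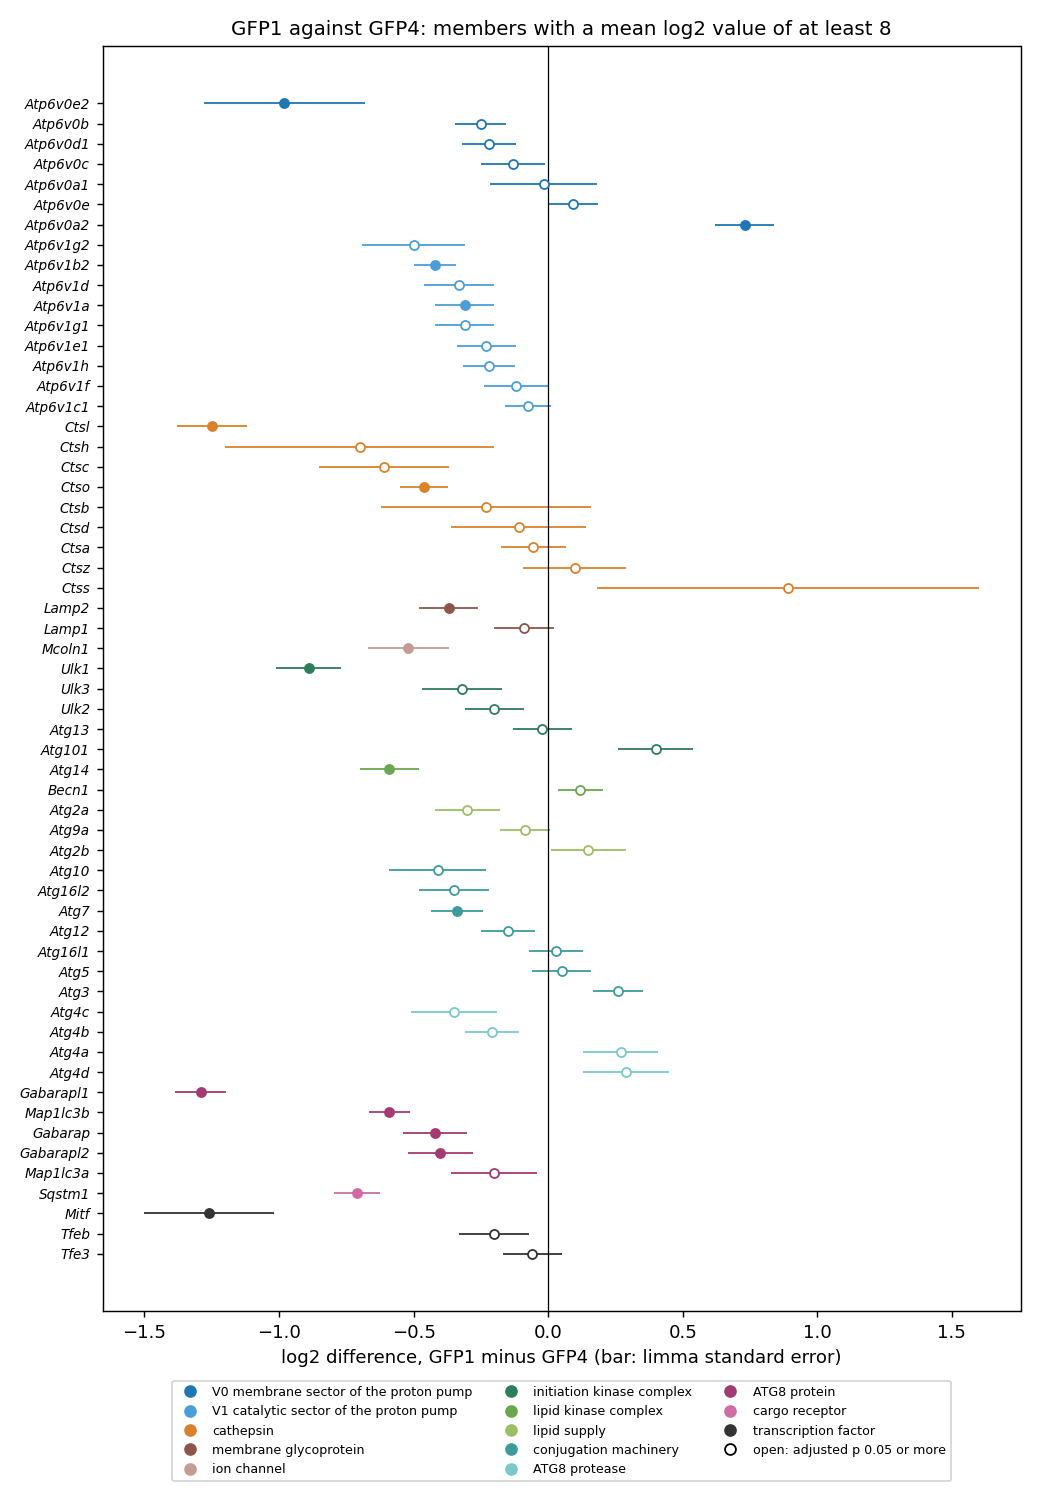
Log2 difference, GFP1 minus GFP4, for the 58 members with a mean log2 value of at least 8, grouped by role; bars are limma standard errors, filled points passed an adjusted p of 0.05 and open points did not. Filled points lie to the left of 0 except Atp6v0a2, which lies at 0.73.

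The ATG8 proteins, which are attached to the growing membrane and recruit cargo, had 4 of 5 genes lower in GFP1, where 21.9% of all genes with a mean of at least 8 were lower. Gabarapl1, a GABARAP-family ATG8 protein (chr6:129533160-129542346, GRCm38), stood at 12.10, 12.34 and 12.08 log2 units in GFP1, at 12.91, 12.95 and 13.01 in GFP2, at 13.06, 13.26 and 13.30 in GFP3 and at 13.46, 13.35 and 13.58 in GFP4. All GFP1 libraries were below all GFP2 libraries, and all GFP2 libraries below all GFP3 and GFP4 libraries. Its difference between GFP1 and GFP4 was -1.29 (SE 0.095, adjusted p = 1.55e-08, limma). Map1lc3b (LC3B, the ATG8 protein most used to mark autophagosomes; chr8:121590361-121598760) had 13.58, 13.56 and 13.56 in GFP1, against 14.10, 14.15 and 14.22 in GFP4. The groups did not overlap, and the difference was -0.59 (SE 0.077, adjusted p = 1.21e-05). Gabarap had 12.20, 12.54 and 12.29 in GFP1, against 12.84, 12.55 and 12.88 in GFP4, where GFP4 library II lay just above the highest GFP1 library. Its difference was -0.42 (SE 0.12, adjusted p = 0.0150). Gabarapl2 had 11.48, 11.75 and 11.67 in GFP1, against 12.08, 11.88 and 12.15 in GFP4, again without overlap, and differed by -0.40 (SE 0.12, adjusted p = 0.0174). Map1lc3a, the LC3A gene, had 9.29, 9.15 and 9.24 in GFP1 and 9.38, 9.33 and 9.57 in GFP4, and its difference of -0.20 did not pass (adjusted p = 0.512). The calls of Gabarap and Gabarapl2 did not hold in every fit that left out 1 library. Without GFP4 library I, GFP4 library III or GFP1 library I their adjusted p ranged from 0.0630 to 0.0988. Gabarap was also lost without GFP1 library III (0.0598). In these fits the differences lay between -0.389 and -0.342 for Gabarap and between -0.381 and -0.326 for Gabarapl2. Under the replicate block both passed (limma, adjusted p = 0.00782 and 0.00806).

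Sqstm1, which encodes the cargo receptor p62 (chr11:50199366-50210827), had 12.90, 12.85 and 12.76 in GFP1, 13.17, 13.34 and 13.20 in GFP2, 13.16, 13.41 and 13.38 in GFP3, and 13.47, 13.58 and 13.59 in GFP4. GFP1 was lowest and GFP4 highest with no overlap between either and the other bins, while GFP2 and GFP3 overlapped. The GFP1 to GFP4 difference was -0.71 (SE 0.087, adjusted p = 4.97e-06).

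Among genes that start autophagy, Ulk1 differed most. Ulk1, the initiating kinase (chr5:110784488-110810097), stood at 12.29, 11.90 and 11.82 in GFP1, 12.44, 12.53 and 12.57 in GFP2, 12.72, 12.81 and 12.59 in GFP3, and 12.85, 13.08 and 12.76 in GFP4. GFP1 lay below every other bin, with a difference to GFP4 of -0.89 (SE 0.12, adjusted p = 1.76e-05). Its relatives did not pass: Ulk2 differed by -0.20 (11.78, 11.80 and 11.80 in GFP1 against 12.04, 12.04 and 11.90 in GFP4; adjusted p = 0.230) and Ulk3 by -0.32 (10.06, 9.89 and 9.95 against 10.03, 10.55 and 10.27; adjusted p = 0.156). Atg101, a scaffold of the ULK complex, pointed the other way with 10.70, 10.69 and 10.73 in GFP1, against 10.23, 10.15 and 10.54 in GFP4, and its difference of 0.40 (SE 0.14) just missed the threshold (adjusted p = 0.0528), which it passed under the replicate block (0.0307). In the lipid kinase, Atg14, the subunit that brings the kinase to the site of autophagosome formation, had 10.11, 10.16 and 10.27 in GFP1, against 10.62, 10.80 and 10.89 in GFP4. The bins did not overlap, and the difference was -0.59 (SE 0.11, adjusted p = 0.000704). Becn1, its partner Beclin 1, had 12.00, 12.09 and 12.01 in GFP1 and 11.83, 11.90 and 12.00 in GFP4, which differed by 0.12 (adjusted p = 0.395).

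In the conjugation machinery 1 of 7 genes was lower (14.3%) and 0 were higher, against 21.9% and 18.9% of all genes with a mean of at least 8. Atg16l2 (-0.35, adjusted p = 0.0675) passed in addition under the replicate block (0.0445). Atg7, the E1-like activating enzyme of both conjugation systems, had 11.08, 10.98 and 10.95 in GFP1, against 11.20, 11.46 and 11.38 in GFP4, a difference of -0.34 (SE 0.097, adjusted p = 0.0145). The bins did not overlap, but leaving out GFP4 library II or III or GFP1 library II or III raised the adjusted p to between 0.0516 and 0.0873. Atg3, the E2-like enzyme, had 11.42, 11.40 and 11.34 in GFP1 and 11.23, 11.09 and 11.08 in GFP4, a difference of 0.26 (SE 0.092, adjusted p = 0.0539). None of the 4 ATG8 proteases (Atg4a to Atg4d) and none of the 4 lipid supply genes (Atg2a, Atg2b, Atg9a and Atg9b) passed, with group medians of 0.03 and 0.03.

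**Figure D2:**
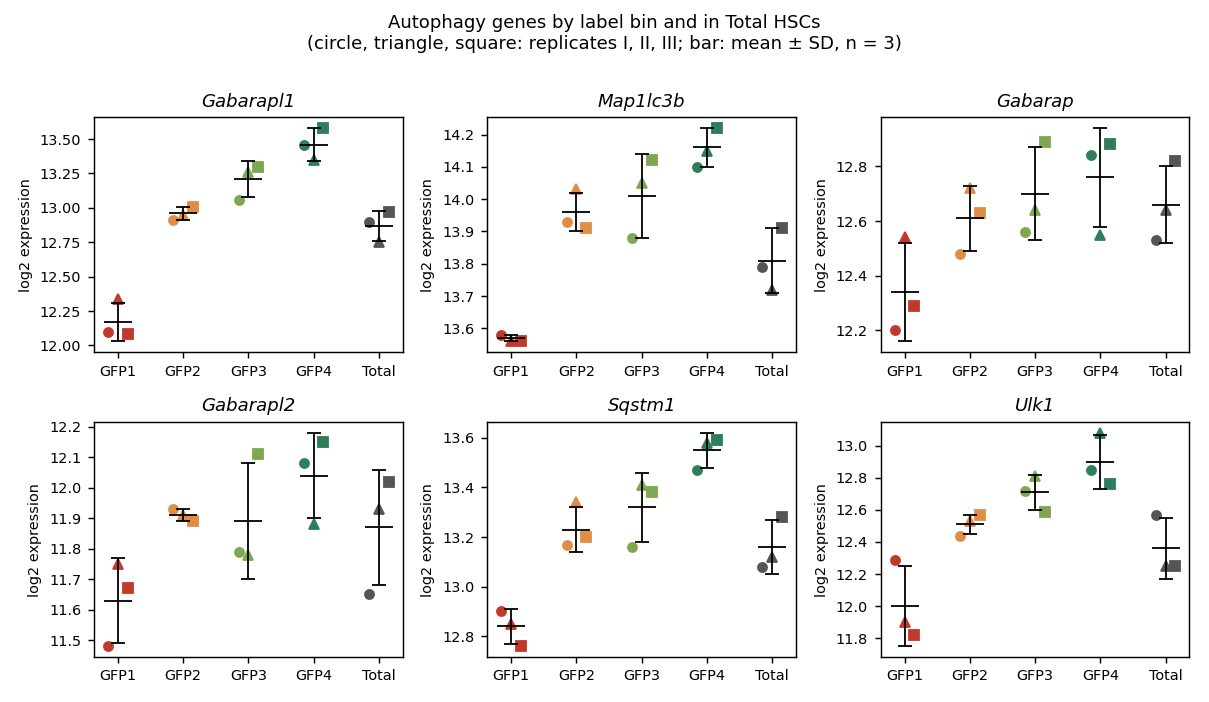
Deposited log2 expression of 6 autophagy members in each library of the 4 label bins and Total; symbols are replicates I, II and III, and bars are mean ± SD (n = 3). GFP1 is the lowest group for each of the 6, with means of 12.17 for Gabarapl1 and 12.84 for Sqstm1, against 13.46 and 13.55 in GFP4.

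On the lysosome side 9 cathepsins had a mean of at least 8, and 2 of these were lower (22.2%) and 0 higher. Of all genes of that level 21.9% were lower and 18.9% higher, so the share that were lower was near that of all genes. Ctsl, the cysteine protease cathepsin L (chr13:64359337-64370890), stood at 10.43, 10.81 and 10.33 in GFP1, 11.46, 11.42 and 11.30 in GFP2, 11.53, 11.56 and 11.77 in GFP3, and 11.86, 11.66 and 11.79 in GFP4. All GFP1 libraries lay below all others, and the difference to GFP4 was -1.25 (SE 0.13, adjusted p = 5.42e-07). Ctso, the related cathepsin O, had 11.52, 11.48 and 11.60 in GFP1, against 11.88, 12.03 and 12.07 in GFP4, without overlap, and differed by -0.46 (SE 0.089, adjusted p = 0.000755). The other 8 cathepsins did not pass without a block. Ctsc, which activates serine proteases of granules, had 11.90, 12.72 and 12.01 in GFP1 and 12.90, 12.76 and 12.80 in GFP4, a difference of -0.61 (SE 0.24, adjusted p = 0.107). Under the replicate block Ctsc did pass (SE 0.16, adjusted p = 0.0130). Ctss, cathepsin S of antigen-presenting cells, had 10.79, 11.93 and 10.56 in GFP1 and 11.09, 9.52 and 9.99 in GFP4, a difference of 0.89 (SE 0.71, adjusted p = 0.511).

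**Figure D3:**
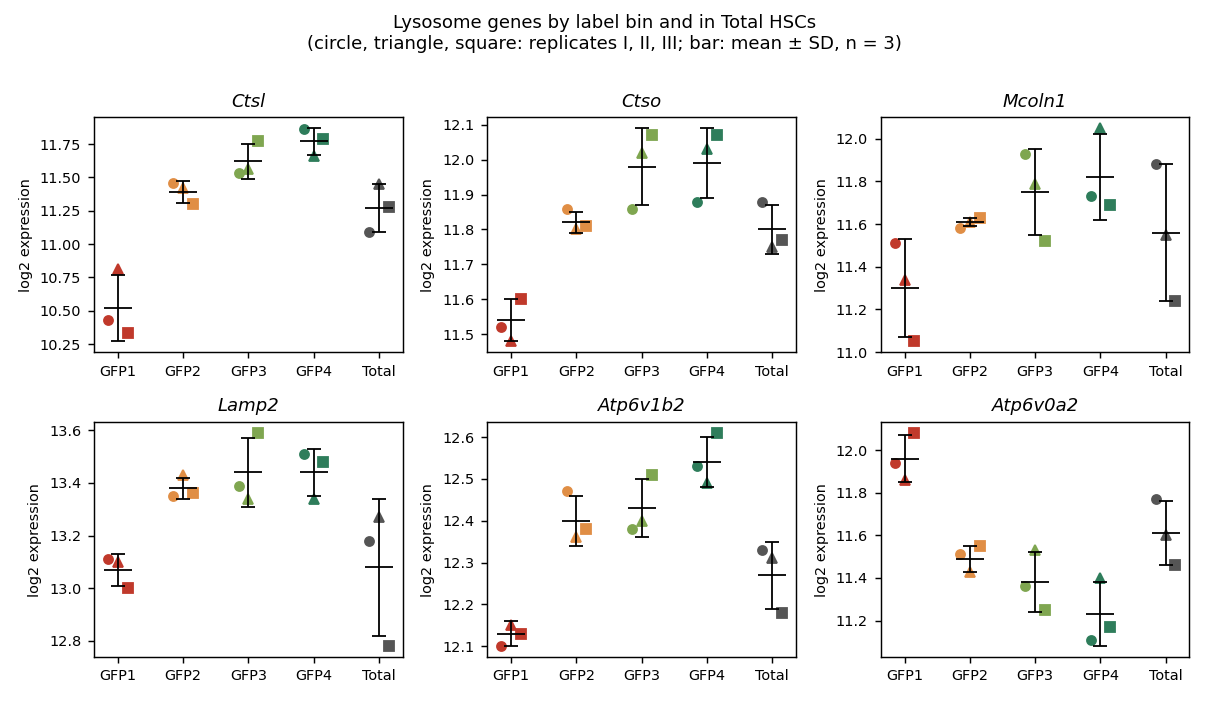
Deposited log2 expression of 6 lysosome members in each library of the 4 label bins and Total; symbols are replicates I, II and III, and bars are mean ± SD (n = 3). Ctsl, Ctso, Mcoln1, Lamp2 and Atp6v1b2 have their lowest bin mean in GFP1, and Atp6v0a2 has its highest there (11.96, against 11.23 in GFP4).

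The wide spread of several cathepsins followed the macrophage markers, which partly shared their highest libraries with the neutrophil markers. Both sums were highest in library II of GFP1, GFP2 and GFP3 and in library I of GFP4. In Total the macrophage sum was highest in library II and the neutrophil sum in library III. Library II also marks 1 age and 1 length of doxycycline. In all 5 groups the library with the highest macrophage marker sum was also the one with the highest Ctsa, Ctsb, Ctsd, Ctsh, Ctss, Ctsz, Lamp1 and Atp6v0e2. For Ctsl this held in 3 of 5 groups and for Ctso in 0 of 5. Ctsb, for example, had 13.51, 14.64 and 13.43 in GFP1 and 14.26, 13.94 and 14.07 in GFP4, with the extremes in the libraries of highest marker sum, GFP1 library II and GFP4 library I. With the macrophage marker sum as a covariate, a setting chosen after these values were seen, the 17 members called between GFP1 and GFP4 kept their calls. Ctsc (-0.67, SE 0.10, adjusted p = 6.61e-05), Ctsh (-0.81, SE 0.17, adjusted p = 0.00147), Atp6v1g1 (-0.32, adjusted p = 0.0327) and Atg101 (0.41, adjusted p = 0.0473) passed in addition. Ctsb (-0.32, adjusted p = 0.0688) and Ctss (0.74, adjusted p = 0.108) did not. Calls over all genes with this covariate were 2726 higher and 2960 lower, against 2596 and 2872 without it. The part of macrophage RNA in these levels was not otherwise tested, and that of neutrophil RNA was not tested. How many of all genes match the macrophage sum in this way was not counted.

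**Figure D4:**
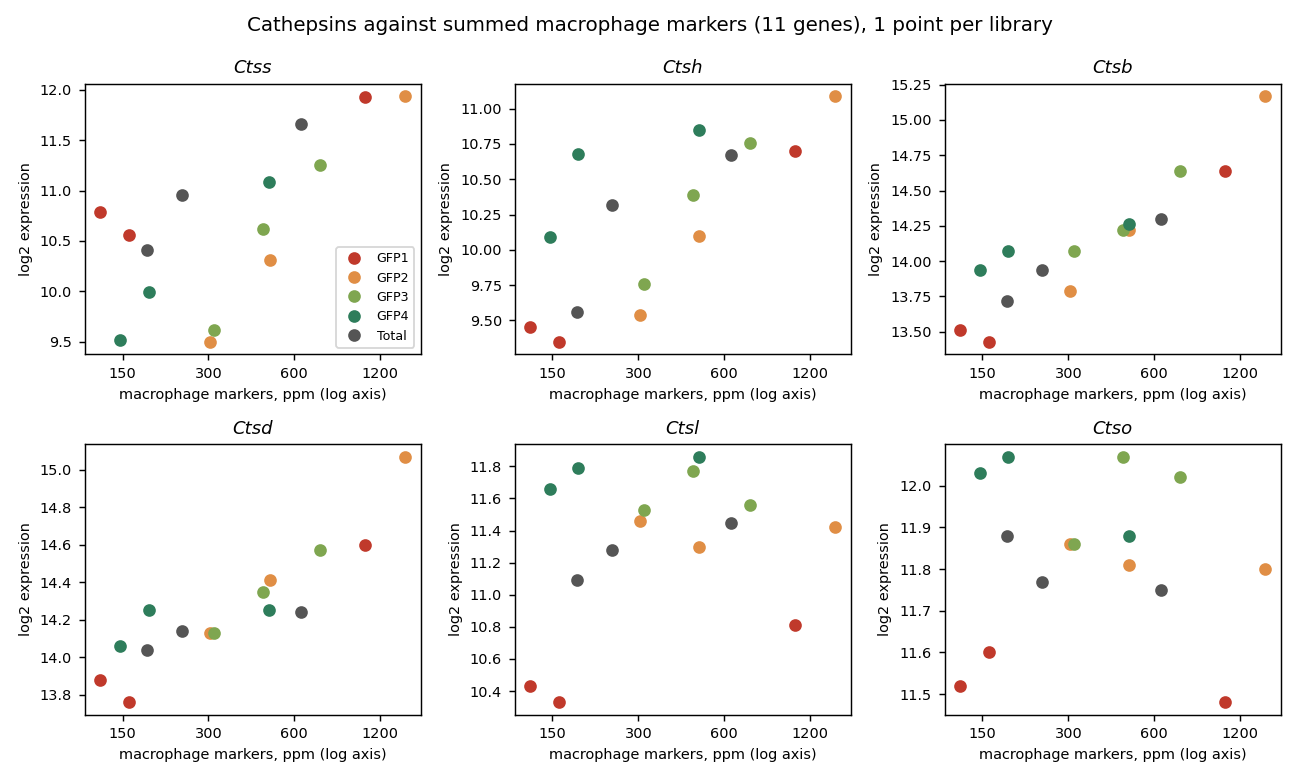
Log2 expression of 6 cathepsins (vertical) against summed macrophage markers in ppm (horizontal, log axis), 1 point per library, coloured by group. Ctsb and Ctsd climb with the markers, whereas the 3 GFP1 points of Ctsl (10.33 to 10.81) and Ctso (11.48 to 11.60) stay lowest at both ends of the marker range.

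Of the proton pump, which acidifies the lysosome, 16 genes had a mean of at least 8, and 1 of these was higher (6.25%) and 3 were lower (18.8%), against 18.9% and 21.9% of all genes of that level. Of all 9 genes of the membrane sector V0, 1 was higher and 1 lower in GFP1, and of 13 genes of the catalytic sector V1, 2 were lower. Atp6v0a2, a membrane subunit that in other cells directs the pump to endosomes and the Golgi (chr5:124628576-124724455), was the 1 member that was higher: 11.94, 11.86 and 12.08 in GFP1, 11.51, 11.43 and 11.55 in GFP2, 11.36, 11.53 and 11.25 in GFP3, and 11.11, 11.40 and 11.17 in GFP4. GFP1 lay above all other bins, and the difference to GFP4 was 0.73 (SE 0.11, adjusted p = 4.87e-05). Atp6v1b2, the V1 subunit B2 that takes part in binding ATP, had 12.10, 12.15 and 12.13 in GFP1, against 12.53, 12.49 and 12.61 in GFP4, with no overlap, and differed by -0.42 (SE 0.079, adjusted p = 0.000609). Atp6v0e2, a small V0 subunit, had 9.34, 10.06 and 9.57 in GFP1, against 11.04, 10.14 and 10.72 in GFP4, a difference of -0.98 (SE 0.30, adjusted p = 0.0361), with the bins just apart. Atp6v1a, the catalytic subunit A, had 11.65, 11.95 and 11.87 in GFP1, against 12.18, 11.95 and 12.26 in GFP4, where library II of both bins met at 11.95, and differed by -0.31 (SE 0.11, adjusted p = 0.0477). The call of Atp6v0e2 was lost without library I or III of GFP1, I or III of GFP4, III of GFP3 or III of Total (adjusted p 0.0523 to 0.135) and in 3 other settings (0.0528 to 0.0659). That of Atp6v1a was lost without library I or III of GFP1, I or III of GFP4, any of GFP2, I or II of GFP3 or I of Total (0.0511 to 0.237) and in 5 other settings (0.0517 to 0.120). Under the replicate block 3 more V1 genes passed as lower: Atp6v1d (-0.33, adjusted p = 0.0394, against 0.0955 without it), Atp6v1g1 (-0.31, 0.0354 against 0.0652) and Atp6v1g2 (-0.50, 0.0445 against 0.0833).

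Of the membrane proteins, Lamp2, which is needed for fusion and for chaperone-mediated autophagy, had 13.11, 13.10 and 13.00 in GFP1, against 13.51, 13.34 and 13.48 in GFP4. The bins did not overlap, and the difference was -0.37 (SE 0.11, adjusted p = 0.0150). Lamp1, the other abundant lysosomal glycoprotein, had 13.19, 13.46 and 13.13 in GFP1 and 13.45, 13.23 and 13.37 in GFP4, which overlapped (-0.09, adjusted p = 0.709). Mcoln1, the calcium channel TRPML1 (chr8:3500457-3515232), had 11.51, 11.34 and 11.05 in GFP1, against 11.73, 12.05 and 11.69 in GFP4, without overlap, and differed by -0.52 (SE 0.15, adjusted p = 0.0204). Lamp2 lost its call without GFP4 library I or III or GFP1 library III (0.0552 to 0.0680), and Mcoln1 without GFP4 library II (0.111) or GFP1 library III (0.122).

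Among the regulators, Mitf, best known from pigment and mast cells (chr6:97807052-98021349), had 7.38, 7.62 and 7.65 in GFP1, 8.11, 8.65 and 8.49 in GFP2, 8.51, 8.93 and 8.35 in GFP3, and 9.07, 8.76 and 8.59 in GFP4. GFP1 lay below all other bins, and the difference to GFP4 was -1.26 (SE 0.24, adjusted p = 0.000642). Tfeb had 9.62, 9.59 and 9.57 in GFP1 and 9.84, 9.78 and 9.77 in GFP4. These did not overlap, yet the difference of -0.20 (SE 0.13) did not pass in limma, which moderates the spread over genes (adjusted p = 0.348). Tfe3 had 10.51, 10.44 and 10.57 in GFP1 and 10.52, 10.61 and 10.57 in GFP4, a difference of -0.06 (adjusted p = 0.819). CACGTG stood in the promoter windows of 5 of the 15 lower members that had a window (33.3%) and of 8 of the 39 that were not called (20.5%), against 8.09% of all genes with a window. The 39 include members with a mean under 8, which passed in no comparison. The difference between these shares was not tested, nor was any link between it and the levels of the regulators.

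Of the 17 calls between GFP1 and GFP4, 10 held in each of 25 settings, and the other 7 are those given above as lost without 1 library. A further setting, added after the values were seen, took the plasma cell marker sum as a covariate, which separates GFP1 from the other bins much as the bin itself does. With it 0 of the 17 passed, all genes called dropped to 72 higher and 31 lower, and Gabarapl1 differed by -1.06 (SE 0.40, adjusted p = 0.323). In this comparison the label bin and the plasma cell RNA cannot be told apart. Repeating the quantile normalization without the 351 immunoglobulin genes, which took 49200 to 52800 ppm in GFP1 and 93.9 to 737 ppm in GFP4, ended the call of Atp6v1a (adjusted p = 0.0664) and of no other member.

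GFP2 was then compared with GFP4, a contrast whose libraries hold little plasma cell RNA (214 to 233 ppm of markers in GFP2 and 241 to 366 ppm in GFP4). Other markers did differ: 3 of 8 megakaryocyte and platelet markers were higher in GFP2 (Itga2b by 1.81, Gp1bb by 2.41 and Gp5 by 1.54), 4 of 12 HSC markers were lower (Ly6a and Hlf among them), and 12 of 12 macrophage markers had a positive difference (median 1.4) with 0 called. Of 10 neutrophil markers 9 had a negative difference (median -0.61), also with 0 called. Their sum took 1690 to 4370 ppm in GFP2 and 2590 to 6740 ppm in GFP4. Of 10 plasma cell markers 1 was called higher in GFP2, while 7 had a negative difference (median -0.26). Of 10 erythroid markers 1 was likewise called higher, while 7 had a negative difference (median -0.34). Gabarapl1 and Sqstm1 were the 2 of 29 autophagy members that passed, both lower in GFP2 (6.90%), and 0 were higher. Over all genes 2.69% were higher and 1.67% lower, and of genes with a mean of at least 8, 6.39% and 3.77%, against 0% and 7.41% of the autophagy members of that level. With the library values given above, Gabarapl1 differed by -0.51 (SE 0.095, adjusted p = 0.00324) and held in every setting, while Sqstm1 differed by -0.31 (SE 0.087, adjusted p = 0.0447) and was lost in 10 of 15 fits that left out a library (adjusted p 0.0503 to 0.213; it held without library II of GFP2, I or II of GFP3, or I or III of Total). Ulk1 missed the threshold at -0.38 (SE 0.12, adjusted p = 0.0885), as did Map1lc3b at -0.20 (SE 0.077, adjusted p = 0.194). Of the 36 lysosome members limma called 0, with 1 higher and 2 lower at an unadjusted p under 0.05, and their median was -0.01, against -0.11 for autophagy members and -0.01 for all genes. Ctsl came nearest at -0.38 (SE 0.13, adjusted p = 0.110). With the macrophage covariate, which was chosen after the values were seen, 4 lysosome members passed, all lower in GFP2: Ctsl, Ctsc, Ctsh and Atp6v0e2. Their differences were -0.517, -0.399, -0.979 and -0.859 with it, against -0.377, -0.0558, -0.293 and -0.445 without it. How many of all genes passed with this covariate in GFP2 against GFP4 was not counted, so these calls have no background beside them.

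Of the steps between neighbouring bins, members passed in the last, GFP1 against GFP2. In GFP3 against GFP4 limma called 0 members, with 0 lysosome and 2 autophagy members lower at an unadjusted p under 0.05, while 0.0429% of genes were higher and 0.0143% lower. In GFP2 against GFP3 it called 0 members and 0 genes (0% in either direction), with 1 lysosome member higher and 1 autophagy member lower at an unadjusted p under 0.05. In GFP1 against GFP2, 1 of 36 lysosome members was higher and 3 were lower, 4 of 29 autophagy members were lower, and Mitf was lower, against 3.06% of genes higher and 4.10% lower. At a mean of 8 or more the shares of all genes were 5.08% higher and 9.32% lower, against 1.72% and 13.8% of the 58 members of that level. Ctsl differed by -0.87 (SE 0.13, adjusted p = 0.000212), Mitf by -0.87 (SE 0.24, adjusted p = 0.0325), Gabarapl1 by -0.78 (SE 0.095, adjusted p = 3.72e-05) and Atp6v0a2 by 0.46 (SE 0.11, adjusted p = 0.0114). The remaining calls in GFP1 were Atp6v1g2 (-0.67; 7.68, 8.17 and 7.90 in GFP1 against 8.59, 8.64 and 8.51 in GFP2), Ulk1 (-0.51), Sqstm1 (-0.40), Map1lc3b (-0.39) and Atp6v1b2 (-0.27). Atp6v1g2 encodes a V1 stalk subunit known mainly from neurons. Calls were lost for Mitf without any 1 GFP1 library or GFP2 library II or III (adjusted p 0.0669 to 0.151), for Ulk1 without GFP2 library III or GFP1 library II or III (0.0583 to 0.0850), for Atp6v0a2 without GFP2 library II or GFP1 library III (0.0603 and 0.0724) and for Sqstm1 without GFP2 library II (0.0524). Atp6v1b2 and Atp6v1g2 were lost in 11 and 6 of 15 such fits, up to 0.138 and 0.181. Mitf, Atp6v1b2 and Atp6v1g2 were also lost without the immunoglobulin genes (0.0822, 0.0664 and 0.114), with median-of-ratios rescaling (0.0518, 0.109 and 0.0601) and with the macrophage covariate (0.0990, 0.0724 and 0.109), and Atp6v1g2 with GFP1 and GFP2 fitted alone (0.0585). All of the calls were lost with the plasma cell covariate. Under the replicate block Atg14 (-0.38, adjusted p = 0.0334), Atp6v1g1 (-0.34, 0.0414) and Ctsc (-0.56, 0.0466) were lower in addition.

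Whether the last step was larger than the first was tested directly, in a contrast chosen after the bin values were seen. The difference GFP1 minus GFP2 less the difference GFP3 minus GFP4 was -0.72 for Ctsl (SE 0.18, adjusted p = 0.0700) and -0.53 for Gabarapl1 (SE 0.13, adjusted p = 0.0833). Limma called 0 of 68 members, with 2 autophagy and 4 lysosome members lower at an unadjusted p under 0.05, while 0.347% of genes were higher and 0.339% lower. A larger last step was therefore not shown for any member.

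The linear trend over the 4 bins, given as the log2 change per step towards GFP1, called 2 autophagy members higher and 9 lower, 1 lysosome member higher and 6 lower, and Mitf lower, against 9.60% of genes higher and 10.5% lower. At a mean of 8 or more the shares of all genes were 19.7% higher and 22.2% lower, against 5.17% and 27.6% of the 58 members of that level. The steepest members were Gabarapl1 (-0.41 per step, SE 0.030, adjusted p = 1.27e-08), Ctsl (-0.40, SE 0.040, adjusted p = 4.60e-07) and Mitf (-0.40, SE 0.076, adjusted p = 0.000661). In the other direction Atp6v0a2 changed by 0.23 per step (SE 0.034, adjusted p = 4.75e-05), Atg101 by 0.14 (SE 0.045, adjusted p = 0.0279) and Atg3 by 0.09 (SE 0.029, adjusted p = 0.0295). Atg101 was lost without any 1 GFP1 library or GFP4 library I or II (0.0614 to 0.120) and Atg3 without any 1 GFP1 library or GFP4 library II or III (0.0524 to 0.0999), and with the plasma cell covariate all the calls were lost. Under the replicate block Ctsc (-0.18 per step, adjusted p = 0.0185), Atp6v1d (-0.10, 0.0473) and Atp6v1a (-0.09, 0.0465) passed in addition.

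Each end of the label range was also set against Total, the undivided sort, which shares the plasma cell RNA of GFP1. In GFP1 against Total, 2 members passed, both lower: Ctsl (-0.75, SE 0.13, adjusted p = 0.00300) and Gabarapl1 (-0.70, SE 0.095, adjusted p = 0.000579). Over all genes 0.318% were higher and 1.41% lower, and of genes with a mean of at least 8, 0.550% and 3.37%, against 0% and 3.45% of the 58 members of that level. Sqstm1 (-0.33, adjusted p = 0.0663) was lower under the replicate block (0.0415). In Total, Ctsl had 11.09, 11.45 and 11.28 and Gabarapl1 had 12.90, 12.75 and 12.97, all above the GFP1 libraries. Ctsl was lost when GFP1 and Total were fitted alone. GFP4 against Total called 4 lysosome members higher and 1 lower and 5 autophagy members higher, against 4.70% of genes higher and 5.29% lower. At a mean of 8 or more, 14.3% of lysosome and 18.5% of autophagy members were higher, against 10.8% of genes, and 3.57% and 0% were lower, against 11.4%; the differences in shares were not tested. Gabarapl1 was higher in GFP4 by 0.59 (SE 0.095, adjusted p = 0.000349), Ulk1 by 0.54 (SE 0.12, adjusted p = 0.00617) and Ctsl by 0.50 (SE 0.13, adjusted p = 0.0139). The others higher in GFP4 were Atp6v1a (0.43), Sqstm1 (0.39), Atg14 (0.39), Lamp2 (0.37), Map1lc3b (0.35) and Atp6v1b2 (0.27), and Atp6v0a2 was lower (-0.38). Tests against Total and between bins share libraries, so these values are not independent of those above. The calls of Atp6v0a2, Atg14, Atp6v1a, Atp6v1b2, Ctsl and Lamp2 in GFP4 against Total were each lost in 2 to 4 of 15 fits that left out a GFP4 or Total library, with an adjusted p of at most 0.150. Of these, all but Ctsl were also lost with GFP4 and Total fitted alone (0.0558 to 0.179). Atp6v1b2 and Lamp2 were lost as well without the immunoglobulin genes (0.0512 and 0.0568) and with array weights (0.054 and 0.0767).

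**Figure D5:**
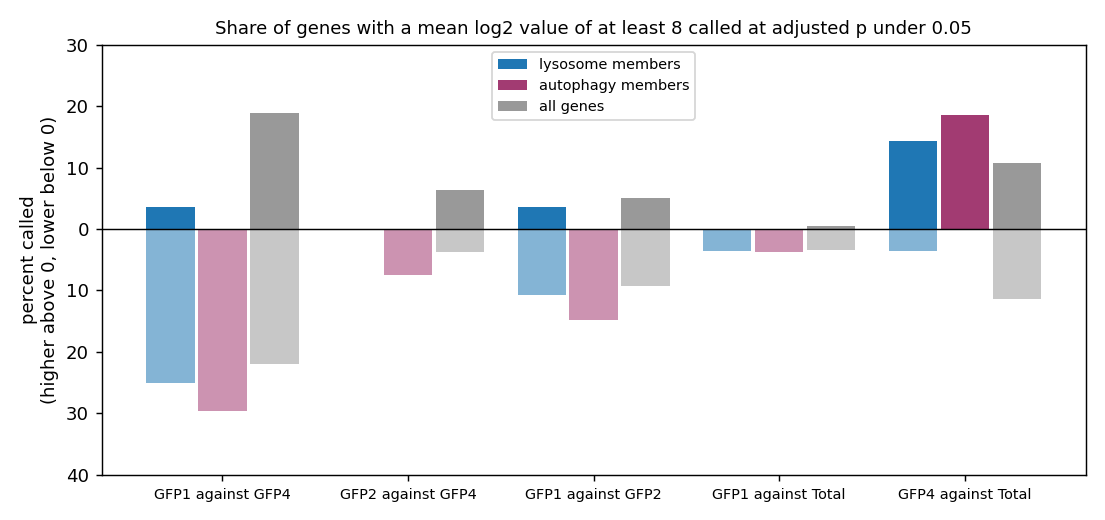
Percent of lysosome members (28), autophagy members (27) and all genes (10726) with a mean log2 value of at least 8 that limma called higher (above 0) or lower (below 0) in 5 comparisons. For GFP1 against GFP4, 25.0% of lysosome and 29.6% of autophagy members were lower, against 21.9% of all genes, while 3.57% and 0% were higher, against 18.9%.

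Wider lists of the same pathways were counted in GFP1 against GFP4, where 18.9% of genes with a mean of at least 8 were higher and 21.9% lower; all but 3 of the 145 listed genes tested are of that level. No difference in shares was tested, and in this comparison the label bin and the plasma cell RNA cannot be told apart. Lysosomal hydrolases and their activators had 4 of 35 higher (11.4%) and 12 lower (34.3%), with a median of -0.24. By smallest p these were led by Gaa, which digests glycogen (-0.85), and Ppt1, which removes fatty acids from proteins (-0.53), and in the other direction by Gusb (0.37) and Man2b1 (0.34), which cleave sugars. Lysosomal membrane and sorting genes had 1 of 29 higher (Ostm1, a partner of the chloride transporter ClC-7, 0.54; 3.45%) and 10 lower (34.5%; median -0.29), led by the transmembrane proteins Laptm4b (-1.80) and Laptm4a (-0.92). The list of mTORC1, Ragulator and AMPK genes had 3 of 31 higher (9.68%) and 6 lower (19.4%), with a median of -0.07. Sesn1 (-0.95) and Sesn3 (-1.09), sestrins that restrain mTORC1, were lower, and Mlst8 (0.70), an mTOR subunit, and Lamtor2 (0.43), of the Ragulator, were higher.

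Other autophagy machinery had 3 of 30 higher (10%) and 9 lower (30%), with a median of -0.14. Tecpr1 (-1.31), which acts in autophagosome to lysosome fusion, and Vps11 (-0.52), a subunit of the tethering complexes, were lower. Bcl2 (0.81) and Bcl2l1 (0.35), which bind Beclin 1 and block cell death, were higher. Selective autophagy receptors had 3 of 20 higher (15%) and 8 lower (40%), with a median of -0.12. Fam134b (-1.18), a receptor for the endoplasmic reticulum, and Calcoco1 (-0.65) were lower, while Optn (1.00), which binds ubiquitin-tagged cargo, and Phb2 (0.56), a mitochondrial inner membrane protein, were higher. Each gene named from these lists passed limma at an adjusted p of at most 0.0158 in GFP1 against GFP4. In GFP2 against GFP4, 6.39% of genes with a mean of at least 8 were higher and 3.77% lower. There the hydrolases and activators had 2 of 35 higher and 1 lower (median 0.02). Membrane and sorting genes had 0 of 29 higher and 3 lower (median -0.13). The mTORC1, Ragulator and AMPK list (31 genes), other autophagy machinery (30) and selective autophagy receptors (20) each had 1 higher and 1 lower.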

How the data were processed

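Gene expression was measured by RNA sequencing of 15 libraries (SMART-Seq v4 and Nextera XT, per the labels' protocols). Per the submitters' processing notes kallisto 0.43.0 and the build GRCm38 were used. The authors deposited 1 table of log2 values per gene symbol and library. How transcripts were summed, the unit before the logarithm and whether it is per length are not given in the sources used, so levels are compared within a gene only. From the values, the columns share 1 distribution (quantile normalized), which removes differences in total RNA, and read depth is unknown.

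Linear values were obtained by undoing the logarithm and subtracting 1, and ppm is a share of their sum per library. A gene was tested if 3 or more libraries reached a linear value of 1 (27994 genes). Group means over all 15 libraries were fitted to the log2 values with limma 3.58.1 in R 4.3.3 (intensity trend, robust moderation), with Benjamini-Hochberg adjustment over all genes tested at 0.05. Differences are the first-named group minus the second, with limma's SE. The fit was tested on simulated data. The file held log2 values and was therefore tested with limma, not with a count model. Coordinates are from GENCODE vM21. The members and lists were chosen with earlier results of these data known. Named members were those given by symbol in the rule, up to 6 lysosome and 6 autophagy members each way in GFP1 against GFP4, up to 3 each way in other comparisons, and 2 each way per wider list; further members were named after their values were seen. Alternatives were other filters, normalizations, a pseudocount of 0.1, library weights, a replicate block, fits of fewer groups, each library left out and 2 covariates added after seeing the data. Per the labels, a replicate number marks 1 age and length of doxycycline in all groups, which pairs the libraries by design; deviations of same-numbered libraries from their group means correlated over 0.1 in 21 of 30 pairs (lowest -0.49, median 0.29), and 13 of 15 libraries correlated best with their own number.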

Additional observations from a re-analysis of the deposited data

How the results depend on the processing

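Counts are of members called, first for GFP1 against GFP4. Lysosome members lower numbered 7, with 11 under the replicate block and 3 to 10 when 1 library was left out. Autophagy members lower numbered 8 (6 to 9 with 1 library left out). Autophagy members higher numbered 0, with 2 at the 1 ppm filter, without immunoglobulin genes, with median-of-ratios rescaling and with array weights, 1 under the replicate block, with GFP1 and GFP4 fitted alone and with the macrophage covariate, and 0 to 2 with 1 library left out. The plasma cell covariate gave 0 in each direction, for both member kinds, in GFP1 against GFP4, in GFP1 against GFP2 and in the trend. Under it Tfe3 (0.40) and Becn1 (-0.0714) reversed in GFP1 against GFP4, and Ulk1 (0.13) in GFP1 against GFP2, none of them passing. No scaling moved the median of all genes by over 0.1: it was -0.07 as deposited, -0.02 without immunoglobulin genes and -0.02 with median-of-ratios rescaling, where calls over all genes were 2681 higher and 2520 lower and 2960 higher and 2521 lower, against 2596 higher and 2872 lower as deposited.

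In GFP2 against GFP4 lysosome members lower numbered 0, with 1 in the 2 groups alone, 1 without the GFP1 and Total libraries and 4 with the macrophage covariate, and autophagy members lower 2 (1 to 2 with 1 library left out). In GFP1 against GFP2 lysosome members higher numbered 1 (2 with the macrophage covariate, 0 to 1 with 1 library left out). Lysosome members lower numbered 3: 5 at the 1 ppm filter, 1 without immunoglobulin genes, 1 with median-of-ratios rescaling, 6 with array weights, 5 under the replicate block, 1 with the macrophage covariate and 1 to 6 with 1 library left out. Autophagy members lower numbered 4 (3 to 5). In the trend, with 1 library left out, lysosome members lower ranged from 3 to 9, autophagy members higher from 0 to 2 and lower from 7 to 10. In GFP1 against Total, lysosome members lower were 0 in those groups alone, and autophagy members lower 2 at the 1 ppm filter and 2 under the replicate block, against 1. In GFP4 against Total, lysosome members higher numbered 4: 2 without immunoglobulin genes, 2 with array weights, 1 in those groups alone, and 0 to 4 with 1 library left out. Lysosome members lower were 0 in those groups alone (0 to 1 with 1 library left out), and autophagy members higher 4 to 5. The causes were not tested.

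The replicate block ended no member's call, and beyond the 13 gained calls given with their comparisons it changed no other member's call. Calls over all genes rose under it too. In GFP1 against GFP4 they were 2787 higher and 3139 lower, and in GFP1 against GFP2 1035 higher and 1425 lower, against 858 and 1149 without it. The trend without the GFP1 and Total libraries was not run, since it reduces to GFP2 against GFP4. Read depth is unknown, so no counting error could be given, and 3 libraries a group limit the precision.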
